A study of Mus musculus with 6 samples.

Results

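Aminoacyl-tRNA synthetases join each amino acid to its transfer RNA, and the 36 described here are the cytosolic and mitochondrial enzymes of the mouse that were chosen by name. They were found as the rows whose NCBI Gene numbers belong to the 36 symbols, of 17567 rows in each library. All 36 had a row, 20 for cytosolic and 16 for mitochondrial enzymes, and all 36 were among the 12209 genes with enough counts to test. One of them, Mars, is listed under its newer name Mars1. The rule uses names only.

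The libraries came from immature dendritic cells, which take up antigen before they mature, grown out of bone marrow of male C57BL/6 mice aged 6 weeks in 10% serum with 20 ng/mL of GM-CSF and 10 ng/mL of IL-4, the cytokines that drive this differentiation. No genetic change is named. Cells were taken on day 6 and selected on beads against CD11c. The treated group received 100 µM H2O2 for 24 h, as a chemical source of oxidative stress, and the control group is labelled only as control. The labels give 3 samples in each group, but H2O2 replicate 3 held exactly the values of H2O2 replicate 1, so 2 H2O2 libraries are compared here with 3 control libraries. Replicates are numbered in the order of the sample records.

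The 5 libraries fell into 2 sets that the treatment does not define. Transcripts of 4 Y-linked genes summed to 96.4 CPM, that is counts scaled to a common library size, in H2O2 replicate 1 and 106 CPM in control replicate 1. They stayed at or below 0.427 CPM in H2O2 replicate 2 and control replicates 2 and 3, although all mice were labelled male. H2O2 replicate 1 and control replicate 1 are called set A, and the other 3 libraries set B; the sample titles pair the libraries in the same way. All changes below are log2 values of H2O2 over control from 1 fit of all tested genes with a term for the set, and a gene is called at an adjusted p of at most 0.05 in edgeR's quasi-likelihood test with Benjamini-Hochberg adjustment. Values within a set compare 1 H2O2 library with the control libraries of that set and carry no test. Library totals lay between 16232604 and 16672491 counts, and whether replicates came from separate mice is not said, so p-values measure only the spread between these libraries.

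Of the listed dendritic cell markers, 7 of 10 were called lower with H2O2 and none higher, while Itgax, which encodes CD11c, had 1496 and 2177 CPM in H2O2 libraries, against 1473, 2154 and 1940 CPM in control libraries. All 12 listed markers of dividing cells were called lower, with sums of 419.5 and 208.6 CPM in H2O2 libraries, against 1283, 387.6 and 700.8 CPM in control libraries. Mast cell and basophil markers summed to 11.3 and 26.9 CPM in H2O2 libraries, against 34.8, 59.4 and 85.5 CPM in control libraries, and 5 of 8 were called lower. Of the neutrophil markers 3 of 11 were called lower and 1 higher, and of the 7 macrophage markers tested 2 were called lower and 1 higher. Over all tested genes 4.61% were called lower and 3.93% higher. Markers of T and NK, B and erythroid cells summed to at most 1.59 CPM in any library, and none of them was tested. In such bulk RNA, fewer cells of a type and less RNA per cell cannot be told apart, and the part of these markers in the results on synthetases was not tested.

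A synthetase recognises its amino acid and the transfer RNAs that carry it, spends ATP to activate the amino acid, and transfers it to the end of the RNA, where the ribosome can use it. The enzymes fall into classes I and II by the fold of the catalytic domain. In mammals a group of cytosolic enzymes sits in a multisynthetase complex on the scaffold proteins Aimp1, Aimp2 and Eef1e1, and mitochondria import their own enzymes, mostly from separate nuclear genes. Uncharged transfer RNA activates the kinase Gcn2 (gene Eif2ak4), which phosphorylates eIF2 and favours translation of Atf4, and ATF4 binds composite C/EBP-ATF elements (CARE) in genes of amino acid supply, several cytosolic synthetases among them.

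Since many cytosolic synthetases are known ATF4 targets, their promoters were searched for the CARE letters TGATGNAA on both strands. The window ran from 250 bases before to 50 bases after the transcription start that the RefSeq promoter table for GRCm38.p6 uses for each gene. For Gars, Iars and Tars this is the outermost start in the RefSeq gene table, while for Aars and Yars it lies 6064 and 169 bases inside the gene from that outermost start. The table held a promoter for 27 of the 36 genes, 13 cytosolic and 14 mitochondrial. It held none for Cars, Hars, Lars, Nars, Rars, Vars, Wars, Hars2 or Pars2. The letters were found in 5 of 13 cytosolic promoters (38.5%), those of Aars, Gars, Iars, Tars and Yars, and in 0 of 14 mitochondrial ones. They were found in 281 of 9868 tested genes with a promoter (2.85%), in 4.51% of all 27025 genes in the table, and in 6 of 19 other known ATF4 targets (31.6%). The 5 cytosolic promoters are shown here because they hold the motif, and that of Asns, the asparagine synthetase gene, because it is a textbook ATF4 target; capitals mark the CARE letters or their complement. Aars lies at chr8:111033592-111033891 (+), Gars at chr6:55037751-55038050 (+), Iars at chr13:49681880-49682179 (+), Tars at chr15:11399609-11399908 (-), Yars at chr4:129189653-129189952 (+) and Asns at chr6:7693160-7693459 (-), each given in the direction of its gene:
Aars: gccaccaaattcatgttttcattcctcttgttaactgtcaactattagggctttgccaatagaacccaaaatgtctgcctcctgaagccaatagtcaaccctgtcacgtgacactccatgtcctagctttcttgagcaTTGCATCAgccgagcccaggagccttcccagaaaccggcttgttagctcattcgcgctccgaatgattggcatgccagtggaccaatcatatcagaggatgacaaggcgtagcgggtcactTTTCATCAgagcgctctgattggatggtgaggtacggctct
Gars: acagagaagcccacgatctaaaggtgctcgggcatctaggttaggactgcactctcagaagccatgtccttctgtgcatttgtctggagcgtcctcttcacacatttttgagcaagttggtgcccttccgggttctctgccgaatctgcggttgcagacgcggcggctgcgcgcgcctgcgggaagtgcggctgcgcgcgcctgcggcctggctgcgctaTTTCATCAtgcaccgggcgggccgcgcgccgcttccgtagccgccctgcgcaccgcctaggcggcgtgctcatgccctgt
Iars: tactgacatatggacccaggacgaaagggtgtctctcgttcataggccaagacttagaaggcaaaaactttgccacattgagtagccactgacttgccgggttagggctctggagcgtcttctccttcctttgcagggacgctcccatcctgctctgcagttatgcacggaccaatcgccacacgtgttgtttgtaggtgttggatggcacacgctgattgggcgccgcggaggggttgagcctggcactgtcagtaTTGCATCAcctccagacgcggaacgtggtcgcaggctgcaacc
Tars: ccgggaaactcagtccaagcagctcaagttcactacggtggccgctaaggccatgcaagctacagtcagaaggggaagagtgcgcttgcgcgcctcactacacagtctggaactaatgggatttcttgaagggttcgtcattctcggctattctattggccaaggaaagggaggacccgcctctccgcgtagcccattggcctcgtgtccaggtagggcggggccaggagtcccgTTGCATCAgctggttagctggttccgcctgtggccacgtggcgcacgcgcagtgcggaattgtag
Yars: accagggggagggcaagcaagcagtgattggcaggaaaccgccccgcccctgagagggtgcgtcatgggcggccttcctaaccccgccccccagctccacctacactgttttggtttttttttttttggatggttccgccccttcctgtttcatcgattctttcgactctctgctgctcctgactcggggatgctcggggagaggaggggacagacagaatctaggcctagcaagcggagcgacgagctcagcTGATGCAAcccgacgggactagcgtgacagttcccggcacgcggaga
Asns: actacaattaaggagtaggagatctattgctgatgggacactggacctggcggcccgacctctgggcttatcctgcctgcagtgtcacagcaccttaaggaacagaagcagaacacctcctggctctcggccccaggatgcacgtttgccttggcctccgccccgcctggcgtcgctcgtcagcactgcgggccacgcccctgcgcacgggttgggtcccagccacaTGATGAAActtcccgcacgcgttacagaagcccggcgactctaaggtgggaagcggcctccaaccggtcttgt

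Most of the matches stood close to the start in the promoter table. The first base of the match was at -30 in Gars, -15 in Tars, 4 in Yars, 8 in Iars and -23 in Asns, counted in bases from that start. Aars held 2 matches, at -112 and 10. The antioxidant response element (ARE), searched as TGACNNNGC on both strands, was present in 3 of 13 cytosolic promoters (23.1%; Aars, Iars and Mars) and 3 of 14 mitochondrial promoters (21.4%; Aars2, Lars2 and Nars2), against 17.1% of tested genes. The cyclic AMP response element (CRE), searched as TGACGTCA, was present in none of them, against 3.52% of tested genes. None of the 6 CARE matches overlapped a match to either of the other motifs. A match describes these letters only, and binding was not measured.

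**Figure D1:**
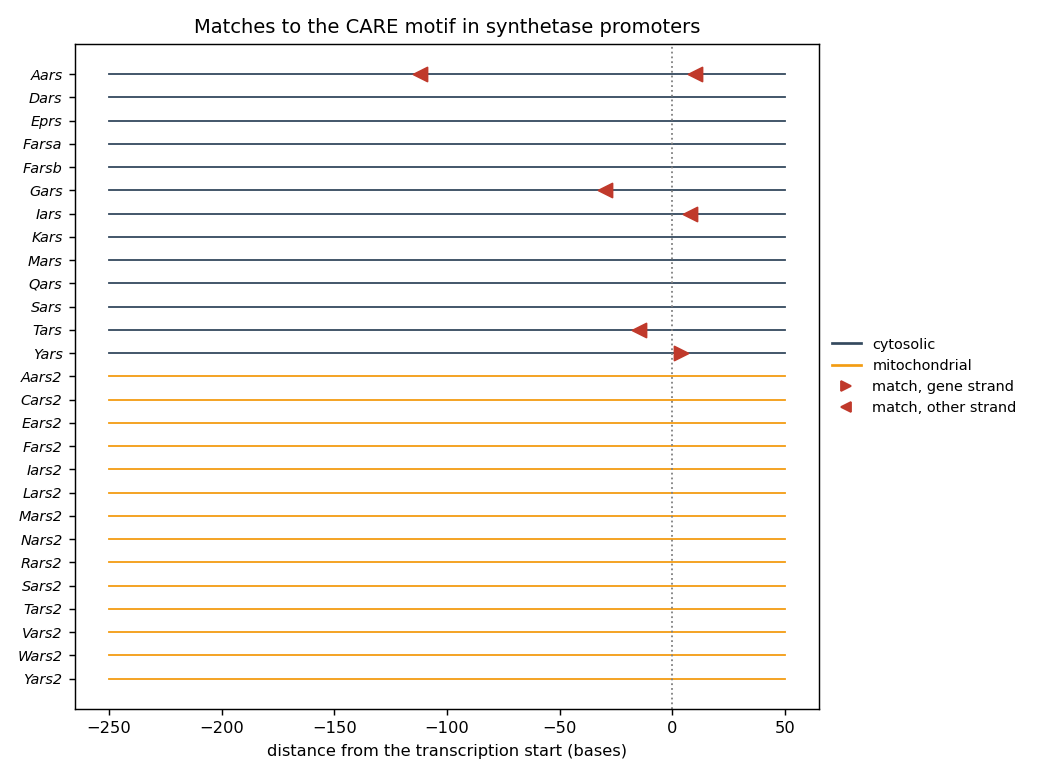
Positions of CARE letter matches in the 27 synthetase promoters. The horizontal axis is the distance in bases from the transcription start, each line is a promoter, dark for cytosolic and orange for mitochondrial genes, and arrowheads mark matches on the gene's strand or on the other strand. All 6 matches lie in 5 cytosolic promoters, 5 of the matches between -30 and 10, and the 14 mitochondrial lines carry none.

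The first comparison asked how the cytosolic enzymes differed after H2O2. Vars, Mars and Gars, which charge the transfer RNAs of valine, methionine and glycine, were lower in the H2O2 libraries, by 1.56-, 1.36- and 1.33-fold, and no cytosolic synthetase was called higher. That makes 3 of 20 called lower, where 4.61% of all tested genes were called lower, and 0 of 20 called higher, where 3.93% were called higher. The log2 change was below 0 in 18 of 20, against 48.4% of tested genes, and ranged from -0.65 (Vars) to 0.14 (Farsa). Its median over the 20 was -0.23, beside 0.00891 over all tested genes. At an unadjusted p under 0.05, 10 of 20 were lower, against 14.1% of tested genes, and 0 were higher, against 13.7%. The same 3 genes were called by DESeq2 and by limma-voom with the set term (each 3 of 20, against 4.33% of tested genes), and Mars and Vars alone with a replicate block (2 of 20, against 2.74%). Without the set term no gene of the whole table was called in edgeR's test (lowest adjusted p 0.390), and 3 of 20 were lower at an unadjusted p under 0.05, against 3.19% of tested genes. Without the filter on low counts all 3 calls were lost at nearly the same changes, Vars at -0.64 (edgeR adjusted p = 0.0513), Mars at -0.44 (edgeR adjusted p = 0.0527) and Gars at -0.41 (edgeR adjusted p = 0.0723).

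The plot of changes by member also gives the change in each set. The change was below 0 within each set for 15 of 20 cytosolic genes, against 32.5% of tested genes, and above 0 within each set for 2, Farsa and Hars. Eprs, Qars and Rars had opposite signs in the sets. The median over the 20 was -0.10 for set A alone and -0.29 for set B alone. The H2O2 library lay below every control library of its own set for 14 of 20 genes, against 28% of tested genes, and above them for 1 of 20 (Farsa), against 28.5%. Across the sets, both H2O2 libraries lay below all 3 control libraries for Iars, Lars, Tars and Vars, 4 of 20, against 10.7% of tested genes.

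**Figure D2:**
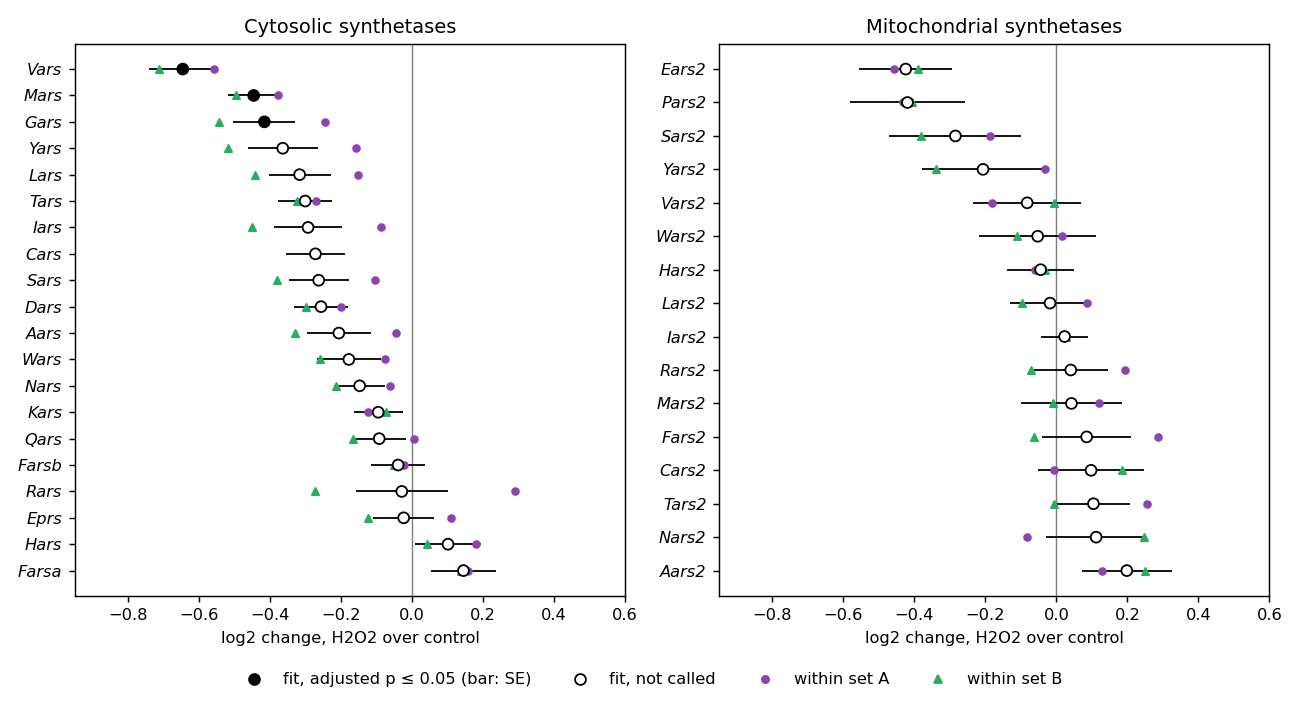
Log2 change of H2O2 over control for the 20 cytosolic (left) and 16 mitochondrial (right) synthetases. Large points are the fitted changes with bars of 1 SE, filled where the adjusted p was at most 0.05; small circles give the change within set A and triangles that within set B. Vars, Mars and Gars are the filled points, at -0.65, -0.45 and -0.42, and the mitochondrial points lie on both sides of 0.

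Vars, the valyl-tRNA synthetase gene on chromosome 17 (35000907 to 35016329, GRCm38.p6), had 55.9 and 51.4 CPM in H2O2 replicates 1 and 2, against 82.4, 77.6 and 90.9 CPM in control replicates 1 to 3. Both H2O2 libraries were below all control libraries, whichever set they came from. The means were 53.6 ± 3.23 CPM with H2O2 (SD, n = 2) and 83.6 ± 6.75 CPM in control (SD, n = 3). The log2 change was -0.65 ± 0.0952 (SE; edgeR adjusted p = 0.0211), with -0.56 for set A and -0.71 for set B. The difference of the sets themselves was 0.03 (set A over set B; edgeR adjusted p = 0.812). Without H2O2 replicate 2 the call was lost (-0.56, edgeR adjusted p = 0.143). Vars stayed called without any 1 of the other libraries, but leaving out either library of set A gives the same comparison, H2O2 replicate 2 with control replicates 2 and 3, where the spread comes from the controls alone.

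Mars, the methionyl-tRNA synthetase gene on chromosome 10 (127296221 to 127311786), encodes an enzyme of the multisynthetase complex that also serves the initiator transfer RNA. It had 56.3 and 73.4 CPM in H2O2 replicates 1 and 2, against 73.2, 103 and 104 CPM in control replicates 1 to 3. The groups overlapped across sets, H2O2 replicate 2 of set B lying level with control replicate 1 of set A, and within each set the H2O2 library was lower. The log2 change was -0.45 ± 0.0712 (SE; edgeR adjusted p = 0.0233), with -0.38 for set A and -0.50 for set B. Set A was lower than set B by its own term, at -0.45 (edgeR adjusted p = 0.00362). The gene overlaps Ddit3 on the opposite strand by 68 bases, and how strand was handled in counting is not given in the sources used here. Besides the alternatives given above, the call was lost without control replicate 3 (-0.44, edgeR adjusted p = 0.0718) and without H2O2 replicate 2 (-0.38, edgeR adjusted p = 0.134).

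Gars, on chromosome 6 (55038001 to 55079504), makes the glycyl-tRNA synthetase of both cytosol and mitochondria, and its promoter is one of the 5 with CARE letters shown above. It had 142 and 177 CPM in H2O2 replicates 1 and 2, against 169, 256 and 259 CPM in control replicates 1 to 3. Within each set the H2O2 library was lower, and across sets H2O2 replicate 2 lay above control replicate 1. The log2 change was -0.42 ± 0.0870 (SE; edgeR adjusted p = 0.0359), at -0.25 within set A and -0.54 within set B, and the sets differed by -0.48 (edgeR adjusted p = 0.00631). Besides the alternatives given above, the call was lost without control replicate 2 (-0.40, edgeR adjusted p = 0.0826), without control replicate 3 (-0.40, edgeR adjusted p = 0.115) and without H2O2 replicate 2 (-0.25, edgeR adjusted p = 0.193), and with the replicate block (-0.39, edgeR adjusted p = 0.0862).

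The next lowest p-values among the members belonged to Tars, Yars and Lars, none of which passed the test. Tars (threonine) had 55.2 and 55.3 CPM in H2O2 libraries, against 66.7, 66.3 and 72.2 CPM in control libraries, so that the groups did not overlap. Its log2 change was -0.30 ± 0.0758 (SE; edgeR adjusted p = 0.0576), with -0.27 for set A and -0.32 for set B. Yars (tyrosine), whose human enzyme is known to yield cytokine-like fragments, had 49.6 and 56.5 CPM with H2O2, against 55.3, 82.1 and 79.9 CPM in control. Its H2O2 libraries were lower within each set but overlapped across them, and the change was -0.36 ± 0.0981 (SE; edgeR adjusted p = 0.0678). Lars (leucine), whose human enzyme is known as a leucine sensor for mTORC1, had 80.8 and 77.0 CPM with H2O2, against 89.8, 105 and 104 CPM in control. The groups did not overlap, and the change was -0.32 ± 0.0872 (SE; edgeR adjusted p = 0.0705), at -0.15 within set A and -0.44 within set B.

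**Figure D3:**
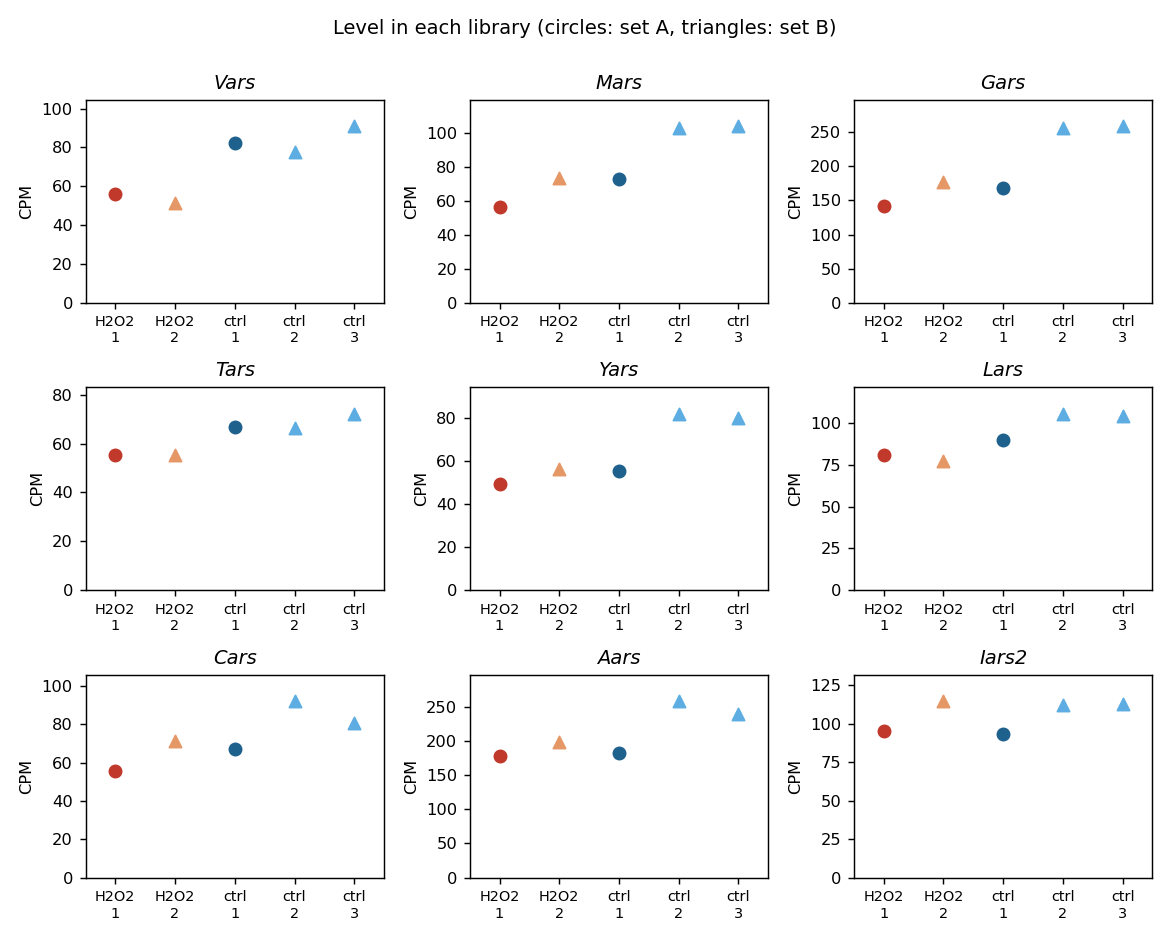
Level in CPM of 8 cytosolic synthetases and of Iars2 in each of the 5 libraries, H2O2 replicates 1 and 2 (reds) and control replicates 1 to 3 (blues), with circles for set A and triangles for set B. Vertical axes start at 0. For Vars both H2O2 points lie below all control points, while for Mars, Gars and Cars the H2O2 point of set B lies near or above the control point of set A.

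Cars and Aars, for cysteine and alanine, were also followed. Cars had 55.7 and 71.4 CPM in H2O2 libraries, against 67.3, 91.9 and 80.5 CPM in control libraries. It was lower within each set by the same amount (-0.27 in both), and the fitted change was -0.27 ± 0.0830 (SE; edgeR adjusted p = 0.0893). Aars had 177 and 198 CPM with H2O2, against 183, 258 and 239 CPM in control. Its difference was wider in set B, with a change of -0.04 for set A and -0.33 for set B, and the fit gave -0.21 ± 0.0891 (SE; edgeR adjusted p = 0.188). Its promoter holds 2 CARE matches. The Aars gene overlaps Exosc6 on the same strand by 1326 bases, so part of its reads may be shared.

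Wars, the tryptophanyl-tRNA synthetase gene, is known to be induced by interferon-gamma. It had 64.3 and 56.4 CPM in H2O2 libraries, against 67.7, 71.7 and 63.2 CPM in control libraries, with overlap between the groups. The change was -0.18 ± 0.0892 (SE; edgeR adjusted p = 0.246). None of 9 interferon-stimulated genes listed beside it was called. Their changes ran from -0.31 (Irf1) to 0.55 (Irf7), with 7 of 9 above 0 and a median of 0.21.

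Dars, Sars, Iars and Nars, for aspartate, serine, isoleucine and asparagine, had changes of -0.26, -0.26, -0.29 and -0.15 with edgeR adjusted p-values between 0.0822 and 0.234. Nars had the highest counts of all members, at 221 and 243 CPM in H2O2 libraries, against 230, 287 and 276 CPM in control libraries. Kars, which like Gars serves both compartments, had a change of -0.10, and Qars (glutamine) one of -0.09. Farsb, the beta subunit of phenylalanyl-tRNA synthetase, had -0.04, while Farsa, the alpha subunit, had 0.14 ± 0.0919 (SE; edgeR adjusted p = 0.356). Eprs, the joined enzyme for glutamate and proline, had 208 CPM in both H2O2 libraries, against 193, 238 and 217 CPM in control libraries. Hars (histidine) had 0.10 (edgeR adjusted p = 0.527) and overlaps Hars2 on the opposite strand by 198 bases. Rars (arginine) had opposite signs in the sets, with 96.6 and 89.8 CPM in H2O2 libraries, against 79.0, 112 and 105 CPM in control libraries, which is 0.29 within set A and -0.27 within set B.

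By structural class, all 10 class I enzymes of the cytosol had changes below 0, with a median of -0.28 and 2 called lower (Vars and Mars). Of the 10 class II enzymes 8 were below 0, with a median of -0.18 and 1 called lower (Gars). The 8 enzymes of the multisynthetase complex had a median of -0.18 with 1 called lower, and the 12 others a median of -0.23 with 2 called lower. The 5 genes with CARE letters had changes between -0.42 and -0.21 with a median of -0.30, the 8 with a promoter but no match a median of -0.09 with a range of -0.45 to 0.14, and the 7 without a promoter in the table a median of -0.18. Of all tested genes 4.61% were called lower. These medians and counts are descriptions of few genes and were not tested against each other.

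The second comparison took the mitochondrial enzymes, which serve the ribosomes of that organelle. None of 16 was called lower or higher in edgeR's test, where 4.61% and 3.93% of tested genes were. The change was below 0 in 8 and above 0 in 8, with a median of 0.00258, and at an unadjusted p under 0.05 there were 2 lower (Ears2 and Pars2), against 14.1% of tested genes, and 0 higher, against 13.7%. DESeq2 and limma-voom with the set term called 0 of 16 as well. Mean levels of the 16 ran from 4.17 to 106 CPM, against 29.2 to 251 CPM for the 20 cytosolic genes. At a change of -0.42 each, Ears2 had an SE of 0.130 and was not called, while Gars had 0.0870 and was called. The part of the level in the number of calls was not tested. Within both sets the change was below 0 in 6 of 16, against 32.5% of tested genes, and above 0 in 2, and in 8 the sets had opposite signs. The 16 summed to 275.5 and 288.8 CPM in H2O2 libraries, against 271.7, 291.4 and 292.0 CPM in control libraries, while the 20 cytosolic genes summed to 1964 and 2125 CPM, against 2085, 2637 and 2609 CPM.

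Iars2, the isoleucyl enzyme, had the highest level of the mitochondrial group. It had 95.1 and 115 CPM in H2O2 libraries, against 93.7, 112 and 113 CPM in control libraries, and the groups interleaved. The change was 0.02 ± 0.0656 (SE; edgeR adjusted p = 0.852). Its deposited counts were not whole in any of the 5 libraries, and the gene overlaps Rab3gap2 on the opposite strand, so part of its reads may be shared.

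Ears2, which charges the mitochondrial glutamate transfer RNA, had 11.0 and 5.44 CPM in H2O2 libraries, against 15.1, 6.89 and 7.38 CPM in control libraries. The H2O2 library was lower in each set, while the sets stood further apart than the treatments. The change was -0.42 ± 0.130 (SE; edgeR adjusted p = 0.0910). Pars2, for proline, had 5.38 and 3.43 CPM with H2O2, against 7.27, 4.29 and 4.82 CPM in control, and showed the same arrangement, with a change of -0.42 ± 0.163 (SE; edgeR adjusted p = 0.152). Aars2 had the highest change of the group, at 0.20 ± 0.127 (SE; edgeR adjusted p = 0.359), with 8.51 and 10.5 CPM in H2O2 libraries, against 7.79, 8.88 and 8.78 CPM in control libraries.

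None of the remaining 12 mitochondrial genes was called. Sars2 (-0.28), Yars2 (-0.21), Vars2 (-0.08), Wars2 (-0.05), Hars2 (-0.04) and Lars2 (-0.02) had changes below 0, and Rars2 (0.04), Mars2 (0.04), Fars2 (0.09), Cars2 (0.10), Tars2 (0.10) and Nars2 (0.11) above 0. Their edgeR adjusted p-values lay between 0.368 and 0.938. Both H2O2 libraries lay below all control libraries for 1 of the 16, against 10.7% of tested genes. This was Yars2, at 5.97 and 5.89 CPM, against 6.10, 8.22 and 6.71 CPM.

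For 13 amino acids the cell has a cytosolic and a mitochondrial enzyme on separate genes, which allows a comparison side by side. The change of the cytosolic gene was below that of its mitochondrial partner in 11 of 13 pairs, and the median difference in log2 change was -0.30. The widest difference was that of Vars and Vars2, at -0.56, followed by Mars and Mars2 at -0.49. Hars and Sars were the exceptions, at 0.15 and 0.02 above Hars2 and Sars2. Per kilobase of transcript (from GENCODE M21 on GRCm38) the cytosolic gene had the higher level in all 13 pairs, with a median of 5.81-fold. The ratio ran from 1.52-fold for Tars to 47.9-fold for Mars, with Sars next at 44.8-fold. By level per kilobase over the 5 libraries, Sars led all members at 100.1 CPM per kb, before Nars at 91.6 and Gars at 84.3. Mars2 was lowest at 0.578 CPM per kb, with Vars2 next at 1.41. The Mars2 transcript used has 11294 bases, longer than the gene's RefSeq span (55237177 to 55240058). The level of Mars2 and the ratio of Mars to Mars2 therefore depend on the annotation.

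Sars, the seryl enzyme at the head of that order, had 143 and 177 CPM in H2O2 libraries, against 154, 233 and 227 CPM in control libraries. It was lower within each set, at -0.11 and -0.38 for sets A and B, and was not called (-0.26 ± 0.0845, SE; edgeR adjusted p = 0.102).

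The library sets also divided the enzymes. By the term for the set, 10 of 20 cytosolic synthetases were called lower in set A, set against set B, where 16.9% of tested genes were, and 0 were called higher, where 19.1% were. Of the mitochondrial enzymes 3 were called higher in set A (Ears2 by 1.06, Pars2 by 0.66 and Sars2 by 0.62, in log2) and 3 lower (Mars2, Rars2 and Iars2, at -0.49, -0.33 and -0.27). The edgeR adjusted p of Ears2 for this difference was 0.00111. All 12 markers of dividing cells were called higher in set A, and the part of such differences between the sets in the levels of the synthetases was not tested. Whether the change with H2O2 itself differed between the sets was tested with an interaction term, which called 0 of 36 members (lowest edgeR adjusted p 0.101) and 2 of 12209 genes (0.0164%). With 1 residual degree of freedom, that test could miss a real difference.

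**Figure D4:**
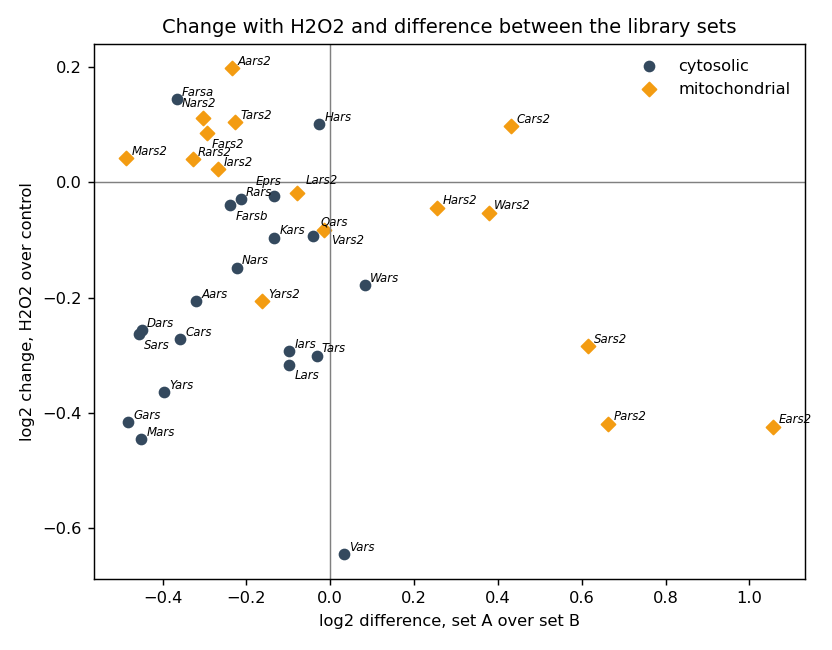
Log2 change of H2O2 over control (vertical axis) against log2 difference of set A over set B (horizontal axis) for the 36 synthetases, circles for cytosolic and diamonds for mitochondrial genes. The cytosolic points lie mostly at the lower left, with 18 of 20 below 0 on each axis, Vars lies near 0 on the horizontal axis, and Ears2, Pars2 and Sars2 lie at the lower right.

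Genes that work beside the synthetases were compared in the same fit. Of the complex scaffold, Aimp1 had a change of -0.14, Aimp2 one of 0.21 and Eef1e1 one of 0.14, and none was called. None of 14 other genes of charging, proofreading and transfer RNA handling was called in edgeR's test. Of these, 11 of 14 were below 0, against 48.4% of tested genes, with a median of -0.15. At an unadjusted p under 0.05, 1 of the 14 was lower, against 14.1% of tested genes. The products of the 5 cytosolic elongation factor genes take part in bringing charged transfer RNA to the ribosome or moving it through. All 5 genes had changes below 0, against 48.4% of tested genes, with a median of -0.20 and none called. At an unadjusted p under 0.05, 3 of the 5 were lower, against 14.1% of tested genes. Eef1a1 had 7407 and 7030 CPM in H2O2 libraries, against 8318, 8946 and 8313 CPM in control libraries, a change of -0.24 (edgeR adjusted p = 0.105). Its H2O2 libraries were both below all control libraries. The 4 mitochondrial elongation factor genes had a median change of 0.00173 with none called and none at an unadjusted p under 0.05, and Tufm, which delivers charged transfer RNA in mitochondria, was at -0.01.

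**Figure D5:**
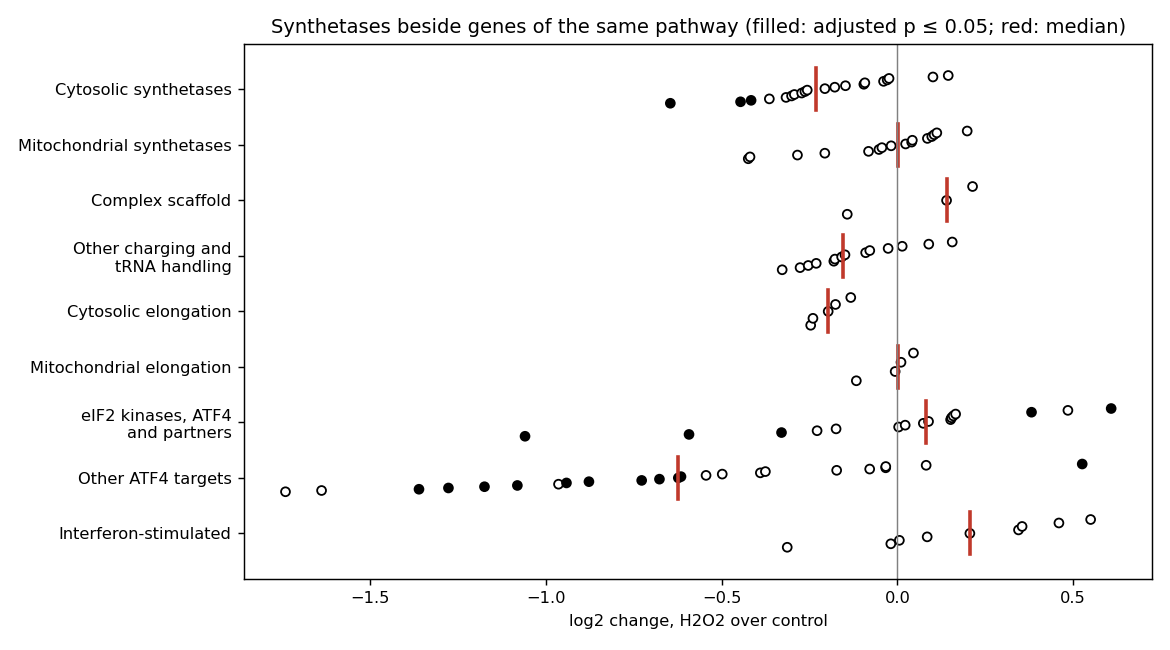
Log2 change of H2O2 over control for the synthetases and 7 lists of related genes, with each gene a point, filled where the adjusted p was at most 0.05, and a red line at each list's median. The cytosolic synthetases and elongation factors have medians of -0.23 and -0.20, their mitochondrial counterparts lie at about 0, and the other ATF4 targets lie lowest at -0.62.

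The genes of the ATF4 pathway, which regulates many cytosolic synthetases, gave mixed results by role. Among 16 genes of the eIF2 kinases, ATF4 and its partners, 2 were called higher, against 3.93% of tested genes, and 3 lower, against 4.61%. Atf3, a stress-induced transcription factor, had 377 and 346 CPM in H2O2 libraries, against 247, 246 and 209 CPM in control libraries, and rose by 0.61 ± 0.0855 (SE; edgeR adjusted p = 0.0184). Cebpb rose by 0.38 (edgeR adjusted p = 0.0417). Trib3, Cebpg and Nupr1 had changes of -0.59, -0.33 and -1.06, with edgeR adjusted p-values between 0.0249 and 0.0491. Neither Eif2ak4, the kinase that senses uncharged transfer RNA, at 0.00330 (edgeR adjusted p = 0.988), nor Ddit3, at -0.17 (edgeR adjusted p = 0.344), was called. Atf4 transcript had 188 and 211 CPM in H2O2 libraries, against 231, 257 and 221 CPM in control libraries, with both H2O2 libraries below all control libraries (-0.23 ± 0.0864, SE; edgeR adjusted p = 0.144). ATF4 is regulated mainly in translation, which these data do not measure.

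Of 23 other known ATF4 targets, 10 were called lower, against 4.61% of tested genes, and 1 higher, against 3.93%. The change was below 0 in 21 of 23, against 48.4% of tested genes, and the median was -0.62. Within the sets it was below 0 in both for 14, against 32.5% of tested genes, above 0 in both for 1, and of opposite signs for 8. The median was -0.26 for set A alone and -0.79 for set B alone. Slc7a5, the light chain of a transporter of leucine and other large neutral amino acids, had 17.7 and 50.1 CPM in H2O2 libraries, against 43.9, 130 and 132 CPM in control libraries, and fell within both sets (-1.36 ± 0.0740, SE; edgeR adjusted p = 0.00257). Serine and one-carbon enzymes fell with it, with Shmt2 at -1.17 (edgeR adjusted p = 0.00440), Phgdh at -1.28 (edgeR adjusted p = 0.00505) and Mthfd2 at -0.73 (edgeR adjusted p = 0.00966). Shmt2 had 20.0 and 21.5 CPM in H2O2 libraries, against 43.7, 48.6 and 50.9 CPM in control libraries. Aldh18a1, an enzyme of proline synthesis, fell by 0.94 (edgeR adjusted p = 0.00929). Asns, whose promoter is shown above, had 34.8 and 54.2 CPM in H2O2 libraries, against 49.6, 104 and 83.9 CPM in control libraries (-0.68 ± 0.120, SE; edgeR adjusted p = 0.0259). Chac1, which degrades glutathione, had 3.07 and 3.11 CPM in H2O2 libraries, against 7.09, 5.92 and 6.34 CPM in control libraries (-1.08 ± 0.170, SE; edgeR adjusted p = 0.0223). The other 3 called lower were Psat1, Slc7a1 and Slc1a4.

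The 1 ATF4 target that rose was Slc7a11, the cystine importer that feeds glutathione synthesis and is also a known NRF2 target. It had 991 and 1215 CPM in H2O2 libraries, against 775, 786 and 761 CPM in control libraries. Both H2O2 libraries stood above all control libraries, and the change was 0.53 ± 0.0846 (SE; edgeR adjusted p = 0.0238).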

How the data were processed

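RNA of mouse immature dendritic cells was measured in samples labelled control and H2O2, 3 in each group. The authors deposited estimated counts per gene without normalization, as the file headers and the values show; 8.38% to 9.03% of a library's values were not whole. HISAT, Bowtie2 and GRCm38.p6 are named, without roles, per the submitters' processing notes. Counter, annotation and strand setting: not given in the sources used here. Overlapping genes may share reads. H2O2 replicate 3 equalled H2O2 replicate 1 in all 17567 values and was left out. Every other pair differed beyond sampling noise, with a chi-square of at least 5.07 per degree of freedom. Replicate numbers follow accession order and serve only as names, although number 1 of both groups falls in set A, which the titles also pair.

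Symbols and positions came from a RefSeq table of GRCm38.p6, which matched 17520 rows (99.73%). Counts were rounded and scaled with TMM factors. The filter was filterByExpr of edgeR with a minimum count of 10 and a minimum total of 15, and 12209 genes passed it. H2O2 was tested against control with edgeR's quasi-likelihood F test, with the set as a further term and 2 residual degrees of freedom left, and p-values were adjusted by Benjamini-Hochberg over all tested genes, with calls at 0.05. Set A held at least 100 counts over the 4 Y-linked genes Ddx3y, Eif2s3y, Kdm5d and Uty. SE is the absolute log2 change over the square root of F. CPM use TMM-adjusted library sizes, except those of the Y-linked sum, which use library totals. An exact permutation test of 3 libraries against 2 cannot go below 0.1. The fit was tested on simulated data whose changes were all larger than those of the synthetases, so recovery of changes of their size was not tested. The tools were DESeq2 1.42.0, edgeR 4.0.16 and limma 3.58.1 under R 4.3.3.

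The members, the gene and marker lists and the set term were chosen with earlier results of these data known. Named in full were called members, those with the lowest p until 6 were reached, the most abundant of each compartment, Wars, Cars, Aars and Asns; of each list, up to 5 called genes each way by lowest p and 10 genes given whatever their values. Other genes of lists are named where few moved, a choice made with their values in view. The alternatives were no set term, a replicate block, other scalings, no filter, DESeq2, limma-voom and each library left out.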

Additional observations from a re-analysis of the deposited data

How the results depend on the processing

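Cytosolic synthetases called lower numbered 3 in the fit reported. They numbered 3 with DESeq2 size factors, DESeq2 and limma-voom, 8 with library totals in place of TMM, and 0 without the filter on low counts (lowest edgeR adjusted p among members 0.0513). Without the set term 0 synthetases and 0 genes were called lower and 0 genes higher, while 3 cytosolic genes were lower at an unadjusted p under 0.05. None was called higher and no mitochondrial one was called in any of the 12 alternatives. Calls over all genes, 563 lower and 480 higher, became 910 lower with library totals, which moved the median of all genes to -0.0562, and 42 lower and 60 higher without the filter.

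With the replicate block (1 residual degree of freedom) Mars and Vars were called, 2 cytosolic genes, and 334 genes were lower and 220 higher; the numbers come from accession order, and number 1 of both groups is set A.

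With 1 library left out the count of cytosolic calls ran from 0 to 11: 11 without control replicate 1, 8 without H2O2 replicate 1, 2 without control replicate 2, 1 without control replicate 3 and 0 without H2O2 replicate 2. Their median change ran from -0.29 to -0.099, the value nearest 0 being that without H2O2 replicate 2. Calls over all genes ran from 0 to 816 lower and from 1 to 1248 higher. Leaving out either library of set A leaves only set B compared, and without H2O2 replicate 2 the comparison rests on set A with 1 library a group. The cytosolic counts are given without the share of all genes called at each omission. They are therefore not read as a result about the synthetases. Vars was called in 9 of 12 alternatives, Mars in 8 and Gars in 6.

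Uncalled changes near 0 turned sign. Without the set term Iars2 was at -0.020, Mars2 at -0.043, Rars2 at -0.025 and Wars2 at 0.017; with the replicate block Lars2 was at 0.015; with library totals Iars2 was at -0.043, Mars2 at -0.024 and Rars2 at -0.025. With 1 library left out the changes ran from -0.0092 to 0.19 for Cars2, -0.13 to 0.11 for Eprs, -0.071 to 0.28 for Fars2, -0.11 to 0.085 for Lars2, -0.019 to 0.12 for Mars2, -0.084 to 0.25 for Nars2, -0.18 to 0.0033 for Qars, -0.28 to 0.29 for Rars, -0.079 to 0.19 for Rars2, -0.016 to 0.25 for Tars2 and -0.15 to 0.060 for Wars2. The cause of these differences was not tested. Mean levels with H2O2 moved by less than the spread between control libraries for all 36 genes when library totals replaced TMM.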
